A study of Homo sapiens with 12 samples.

Results

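A set of 10 genes of the transforming growth factor beta (TGF-β) pathway was followed in H3K4me2 peak lists of U-937, a human leukaemia line of the monocytic lineage: *TGFB1*, *TGFBR1*, *TGFBR2*, *SMAD2*, *SMAD3*, *SMAD4*, *SMAD6*, *SMAD7*, *SKI* and *SKIL*. They are 10 of 19959 protein-coding genes with a canonical start site. For 24 hours the cells were kept in DMSO as vehicle, in 0.1 µM all-trans retinoic acid (ATRA), in 0.1 µM Corin, or in both compounds, each at 0.1 µM. ATRA is the ligand of retinoic acid receptors, and Corin blocks both enzymes of the CoREST complex, LSD1, which demethylates H3K4, and its histone deacetylases. The 12 libraries comprised 8 H3K4me2 libraries, 2 for each treatment, and 4 inputs, 1 for each treatment. Each treatment is represented by 1 list of peaks called on its H3K4me2 libraries together, so the spread between replicates is unknown, no difference below was tested, and every count describes these 4 lists. A change in fewer cells and a smaller change in every cell cannot be told apart in such bulk samples.

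A TGF-β ligand brings together the type II receptor TGFBR2 and the type I receptor TGFBR1, both kinases. TGFBR1 phosphorylates SMAD2 and SMAD3, which join SMAD4 and act on genes in the nucleus. SMAD6 and SMAD7 inhibit the pathway, SKI and SKIL repress SMAD target genes, and several of these brakes are themselves SMAD targets. In myeloid cells the pathway is known for restraining growth and for cooperating with differentiation agents. H3K4me2 marks promoters and enhancers, and LSD1 removes it.

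Peaks that overlapped or touched across the lists were joined into regions. A region belonged to a gene when it touched the gene body or lay within 50 kb of the start site. The members and their windows were chosen by region presence in these lists, with earlier results of the data known, so region counts are given as a description. In all, 154 of 84577 regions lay near the 10 genes, and none lay in the windows of more than 1 of them. At the edge of the window, the regions just inside were a combination-only region 49.74 kb upstream of *SMAD2* and a region of all 4 lists near *SMAD3*, 47.14 kb upstream. Just outside lay combination-only regions 50.78 kb upstream of *SMAD2* and 52.01 kb downstream of the *SMAD7* start. Against markers of the cell type, 6 of 7 monocytic start sites lay under a DMSO peak, compared with 0 of 3 T cell, 2 of 3 B cell and 0 of 3 erythroid ones. Monocytic start sites numbered 6, 6 and 4 of 7 under ATRA, Corin and ATRA+Corin peaks. Over all protein-coding genes the share of start sites under a peak was 47.3% in DMSO, 48.1% with ATRA, 38.0% with Corin and 38.0% with ATRA+Corin. A peak within 1 kb of the start was found at 7, 7, 6 and 7 of the 7 monocytic genes in that order. Coordinates below are on hg38, counted from 1.

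The 3 intervals below are the regions near these genes that are absent from at least 1 list and reach a −log10 q of at least 20 in another, and the 300 bases around the ATRA+Corin summit of each are printed on the plus strand. Capitals mark the 9 bases centred on that summit. The first, chr15:67042134-67042433, lies upstream of *SMAD3* in an intron of the lncRNA gene ENSG00000259347. The second, chr15:67161678-67161977, lies in an intron of *SMAD3*, and the third, chr9:99118984-99119283, in an intron of *TGFBR1*.
SMAD3 upstream: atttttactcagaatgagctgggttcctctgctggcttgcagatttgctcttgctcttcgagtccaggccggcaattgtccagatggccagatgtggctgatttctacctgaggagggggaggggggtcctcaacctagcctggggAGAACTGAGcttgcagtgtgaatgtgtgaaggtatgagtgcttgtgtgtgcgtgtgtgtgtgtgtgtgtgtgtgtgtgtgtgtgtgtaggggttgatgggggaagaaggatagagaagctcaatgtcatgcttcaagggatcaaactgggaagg
SMAD3 intron: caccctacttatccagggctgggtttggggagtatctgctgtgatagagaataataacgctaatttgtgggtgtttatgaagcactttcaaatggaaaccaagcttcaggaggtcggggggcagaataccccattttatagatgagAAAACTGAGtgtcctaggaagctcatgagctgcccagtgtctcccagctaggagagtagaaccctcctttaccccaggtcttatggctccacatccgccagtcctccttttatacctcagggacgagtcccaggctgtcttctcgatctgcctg
TGFBR1 intron: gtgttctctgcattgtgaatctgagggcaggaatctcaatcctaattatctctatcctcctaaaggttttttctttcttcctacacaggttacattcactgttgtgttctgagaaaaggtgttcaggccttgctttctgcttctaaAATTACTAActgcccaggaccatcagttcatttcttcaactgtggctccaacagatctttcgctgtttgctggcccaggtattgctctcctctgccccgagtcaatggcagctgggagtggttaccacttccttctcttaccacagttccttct

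The palindrome GTCTAGAC, which SMAD3 and SMAD4 bind in vitro, occurred 7 times in the 309.2 kb of regions near the 10 genes. It was not counted over all regions, so no excess is read from this number. Each site is shown with its surroundings on the strand of the gene (minus for *SMAD2* and *SMAD7*, plus for the others), with the palindrome in capitals. In the order printed, these sites lie at chr3:30655902-30655909 for TGFBR2, chr18:47903159-47903166 for SMAD2, chr15:66676337-66676344 for SMAD6, chr15:66702224-66702231 for SMAD6, chr18:48922425-48922432 for SMAD7, chr18:48952218-48952225 for SMAD7 and chr1:2266006-2266013 for SKI. None lies in an annotated exon.
TGFBR2 49301 bp downstream: ctactgaaagtGTCTAGACcagcagcagca
SMAD2 27493 bp downstream: ggcagctcaatGTCTAGACtctcttgggat
SMAD6 25899 bp upstream: tctctgtgtgtGTCTAGACatgtttgggtg
SMAD6 12 bp upstream: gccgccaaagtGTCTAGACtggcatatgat
SMAD7 28533 bp downstream: gtggtcccagaGTCTAGACacctgggttct
SMAD7 1260 bp upstream: agcgacagggtGTCTAGACggccacgtgac
SKI 37687 bp downstream: tcttgagctttGTCTAGACtgcgttcagtt

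The 10 genes held 85 regions in the DMSO list, 86 with ATRA, 106 with Corin and 137 with ATRA+Corin. The length under peaks was 172.37 kb, 197.59 kb, 237.51 kb and 283.04 kb in the same order, or 13.7%, 15.7%, 18.9% and 22.5% of the windows. The median gene of the 10 was covered over 14.1%, 16.4%, 21.8% and 21.4% of its window. Across all protein-coding genes the medians were 4.96%, 5.63%, 6.37% and 7.13%. The choice of members used these lists, so both sets of medians are given side by side only. Around the 10 genes, the ATRA+Corin list covered more than the DMSO list did. *SMAD3* held the longest covered length in each list.

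**Figure D1:**
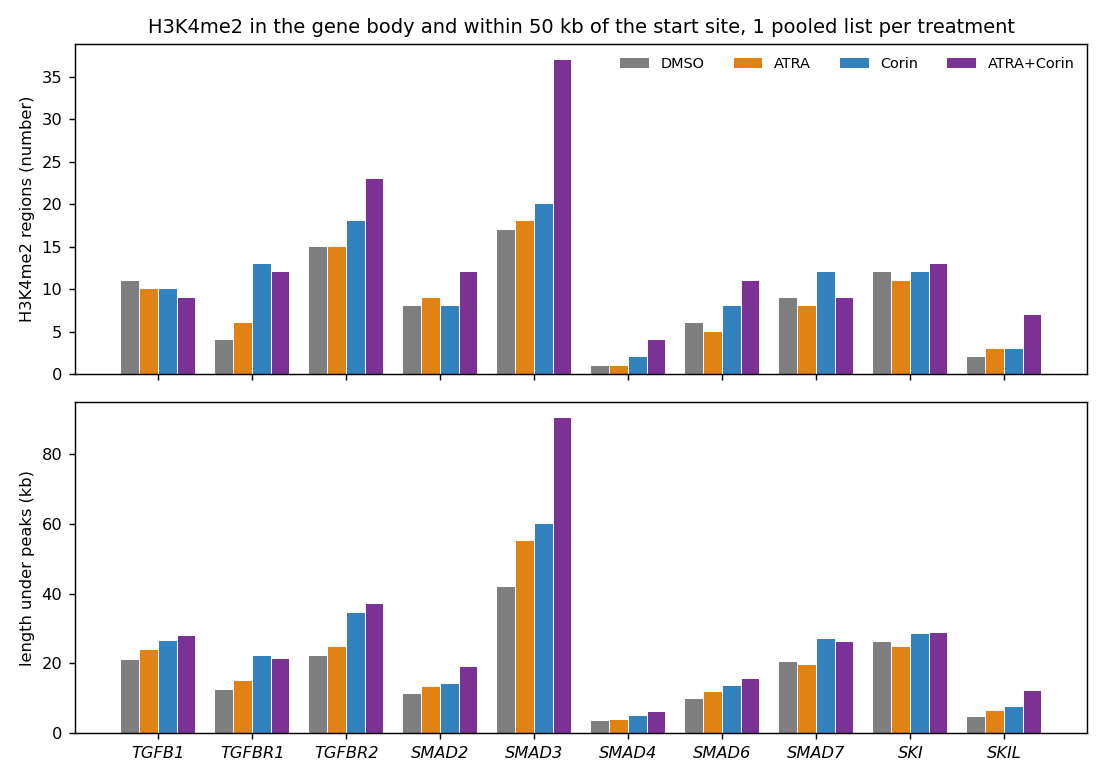
Number of H3K4me2 regions (top) and length under peaks in kb (bottom) in the window of each of the 10 genes; each bar is 1 treatment's pooled list, with no error available. SMAD3 stands highest with ATRA+Corin, at 37 regions and 90.3 kb, while TGFB1 holds 9 with ATRA+Corin and 11 with DMSO.

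A region was called gained when it was present in the first list of a comparison and absent from the second, and lost in the opposite case. Shares are of regions present in either list, and the same share over regions near all protein-coding genes is the background. With ATRA against DMSO, 8 of 93 regions near the 10 genes were gained (8.60%, background 15.4%) and 7 were lost (7.53%, background 7.07%). With Corin against DMSO, 26 of 111 were gained (23.4%, background 21.7%) and 5 lost (4.50%, background 6.92%). With ATRA+Corin against DMSO, 57 of 142 were gained (40.1%, background 34.0%) and 5 lost (3.52%, background 4.30%). These 3 comparisons share the DMSO list. Because the members were chosen on these lists, nothing is read from the gap to the background, and without *SMAD3* the combination gained 36 of 104, or 34.6%.

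The combination list was also compared with each single drug. Against ATRA alone, it gained 55 of 141 regions (39.0%, background 27.8%) and lost 4 (2.84%, background 4.59%). Without *SMAD3*, that gain was 34.6%. Against Corin alone it gained 44 of 150 (29.3%, background 23.3%) and lost 13 (8.67%, background 6.44%), and the gain without *SMAD3* was 23.2%. The combination gained at least 1 region over DMSO at 9 of the 10 genes, all but *TGFB1*, and at 13526 of 19959 protein-coding genes.

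**Figure D2:**
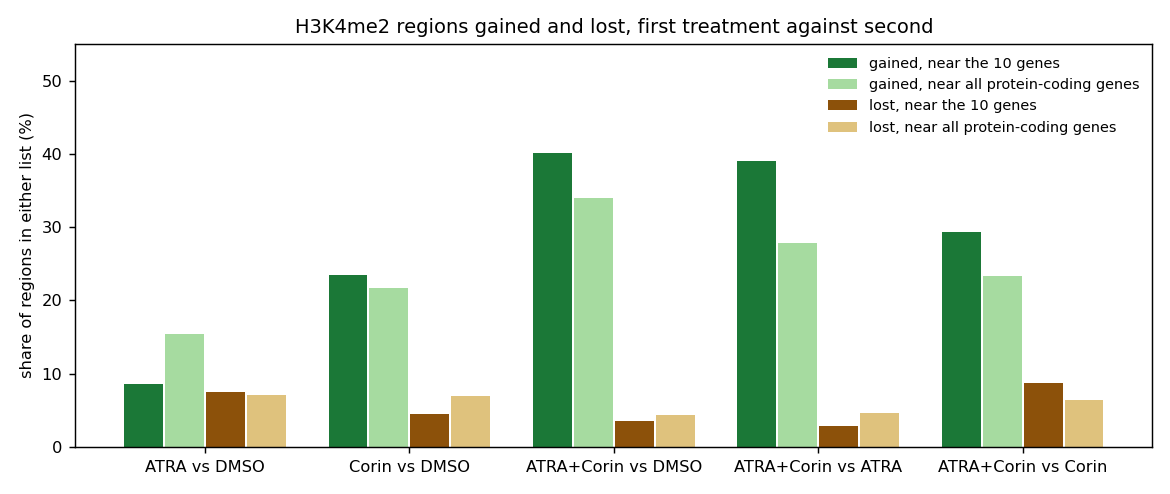
Share of regions gained (green) and lost (brown) in 5 comparisons, as a percentage of regions present in either list; dark bars are the 10 genes, pale bars all protein-coding genes. Gains near the 10 genes are lowest with ATRA (8.60%) and highest with ATRA+Corin against DMSO (40.1%). The ATRA share depends on the setting. With lists thinned to equal depth and cut at a −log10 p of at least 5, it was 15.3% (background 14.9%), and that of Corin 16.3% (background 17.2%).

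Gained regions were weak. The strength used here is the −log10 q that the authors' peak caller gave. It is read within a list, except where regions are ranked by their highest value in any list. The 57 regions gained with ATRA+Corin over DMSO had a median −log10 q of 4.30 and a highest value of 31.9, and 22 of them reached 5. The regions shared with DMSO had a median of 50.6. Over all protein-coding genes these medians were 4.34 and 39.7.

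The ligand gene *TGFB1* held 11 regions in DMSO, 10 with ATRA, 10 with Corin and 9 with ATRA+Corin. It gained none in any comparison with DMSO. Its covered length was 20.9 kb, 23.9 kb, 26.3 kb and 27.7 kb, so all the added length lay in regions that already held a DMSO peak. The region at its start site covered 5.08 kb in DMSO and 7.46 kb with ATRA+Corin. Both regions that the combination lacked were weak in DMSO, with −log10 q of 2.92 at 46.97 kb and 2.55 at 11.07 kb downstream of the start.

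The type I receptor gene *TGFBR1* went from 4 regions in DMSO and 6 with ATRA to 13 with Corin and 12 with ATRA+Corin. Its covered length was 12.3 kb, 14.8 kb, 22.1 kb and 21.1 kb. This was the gene where Corin alone gained the most regions among the 10, namely 9. Apart from 1 region 27.66 kb upstream, the regions gained with Corin lay from 9.17 kb to 22.12 kb into the gene body, where the DMSO list held no peak.

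The strongest of them, chr9:99118605-99120770, lay 13.49 kb downstream of the *TGFBR1* start and was absent from DMSO alone. Its −log10 q was 17.4 with ATRA, 19.2 with Corin and 31.9 with both, with fold enrichments over input of 8.71, 9.23 and 12.9. Its peaks covered 1189 bp, 1620 bp and 2165 bp. It is the only region gained over DMSO with both single drugs and a −log10 q of at least 20 near these genes, and its summit sequence is the TGFBR1 intron line above.

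*TGFBR2*, the ligand-binding receptor gene, held 15, 15, 18 and 23 regions in DMSO, ATRA, Corin and ATRA+Corin. The covered length was 21.9 kb, 24.8 kb, 34.3 kb and 36.9 kb. Both Corin-containing lists covered more than the other lists. Of its regions, 7 occurred only with ATRA+Corin, all downstream of the start, with −log10 q from 1.83 to 10.2. The strongest region that the combination gained over DMSO lay 75.18 kb downstream, with −log10 q of 5.93 with ATRA, 3.60 with Corin and 12.6 with both.

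**Figure D3:**
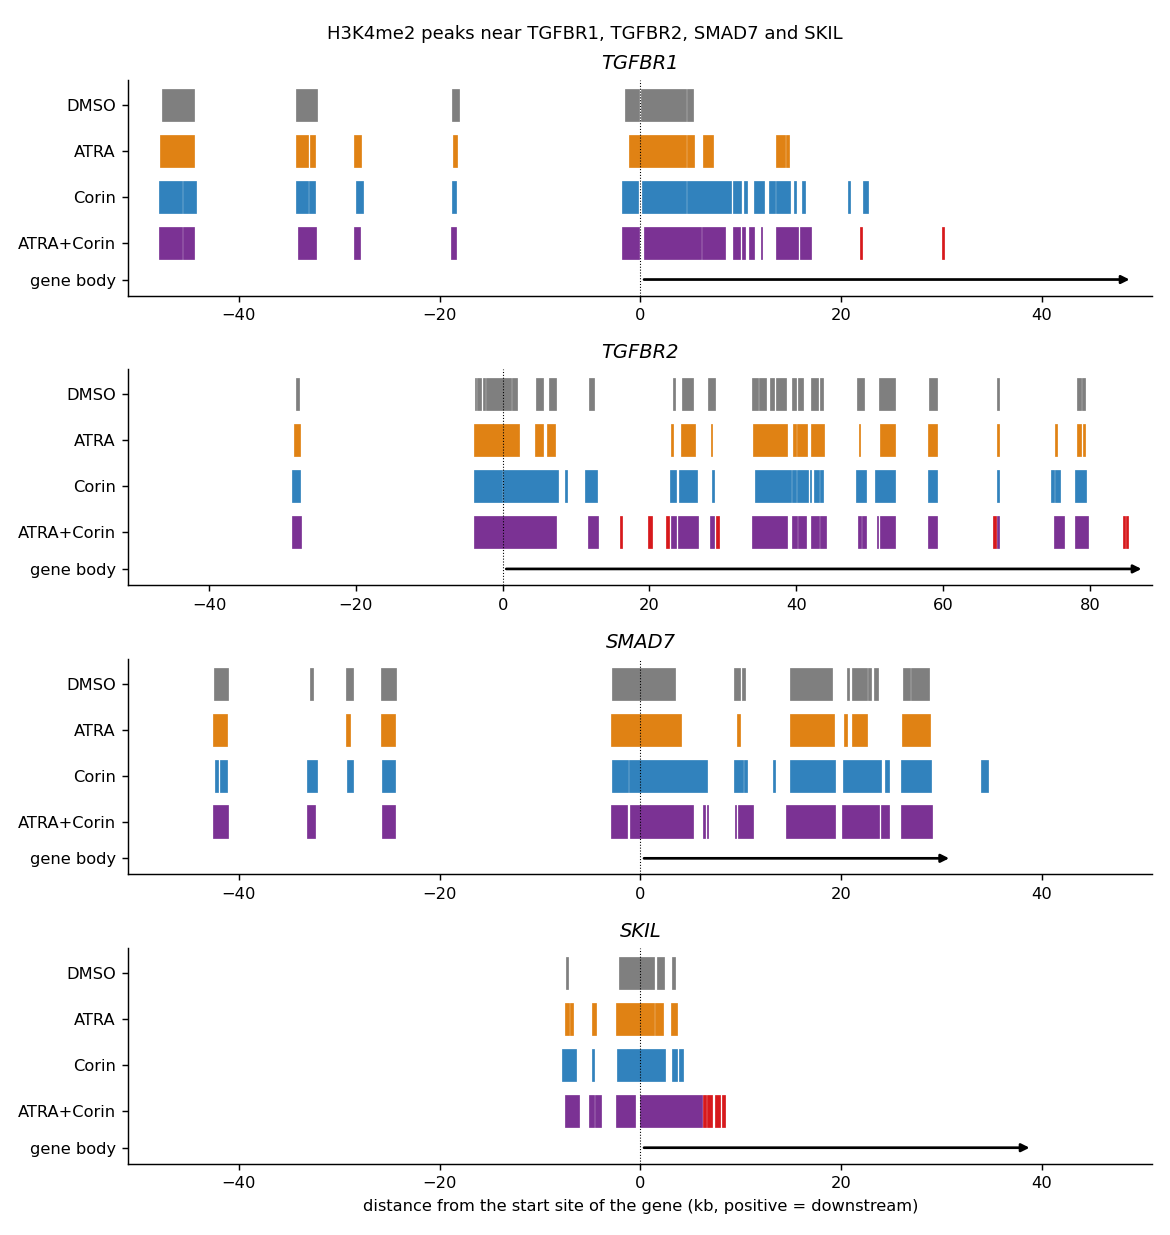
Peaks of the 4 lists near TGFBR1, TGFBR2, SMAD7 and SKIL by distance from each start site in kb; arrows are gene bodies, and red blocks are regions found only with ATRA+Corin. Peaks fill the first part of the TGFBR1 body in both Corin-containing lists, and red blocks follow the SKIL start domain from 6.24 to 8.15 kb.

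Among the receptor-activated SMAD genes, *SMAD3* differed most between the lists. It held 17 regions in DMSO, 18 with ATRA, 20 with Corin and 37 with ATRA+Corin. Peaks covered 41.96 kb, 55.05 kb, 59.88 kb and 90.32 kb, the last being 50.3% of its window. The combination thus covered 48.36 kb more than DMSO, and no other protein-coding gene window had as large a difference; the next were *PTPRJ* with 40.97 kb and ENSG00000273398 with 39.48 kb. *SMAD3* was also first with a −log10 q of at least 5 (41.72 kb), with lists cut to an equal number of peaks (40.65 kb) and at equal depth (42.45 kb). The equal-depth lists were also cut at a −log10 p of at least 5. All these settings keep or drop whole peaks with their deposited edges. Widths called at full depth were therefore untouched, and the repeated first rank is not separate support. As a share of the window, 6 genes including *SMAD3* had a difference of 26.9 percentage points or more.

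Most of this length, 34.95 kb of 48.36 kb or 72.27%, lay in *SMAD3* regions that already held a DMSO peak. The other 13.41 kb lay in regions absent from DMSO. Over the 10 genes together, 71.1% of the length added by the combination lay in regions with a DMSO peak, compared with 63.1% near all protein-coding genes. Of the 15 *SMAD3* regions found in all 4 lists, 14 were wider with ATRA+Corin than with DMSO. Over the 10 genes this was so for 60 of 74 regions, or 81.1%, and near all protein-coding genes for 84.0%.

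The widening joined peaks over the first part of *SMAD3*. The start-site region held 3 separate peaks covering 6.97 kb in DMSO. It held 4 covering 8.48 kb with ATRA and 4 covering 9.42 kb with Corin. With ATRA+Corin it was 1 unbroken peak of 14.01 kb, from 1110 bp upstream to 12901 bp downstream of the start. The next region, which began 13.33 kb downstream of the start, covered 11553 bp, 14420 bp, 15528 bp and 16932 bp.

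At *SMAD3*, 16 regions occurred only in the ATRA+Corin list, and only 8 of 19959 genes, *SMAD3* included, had 16 or more. *RCSD1* had the most, with 22. Per 100 kb of window, *SMAD3* had 8.91, and 38 genes, itself included, had as many or more. Of the 16, 3 lay upstream and 13 downstream of the start, and 10 were packed between 56.68 kb and 77.09 kb into the gene. They were small and weak, from 183 bp to 1381 bp with a median −log10 q of 3.60, and 15 lay within 1 kb of another region. The number of combination-only *SMAD3* regions was 16, but 5 with a −log10 q of at least 5, 4 with equal numbers of peaks, 4 with peaks up to 1 kb apart merged and 10 at equal depth. The share of *SMAD3* regions that the combination gained over DMSO was 55.3%, and 33.3%, 29.2%, 35.3% and 40.7% under these settings. The backgrounds were 34.0%, and 28.0%, 20.5%, 26.3% and 27.6%.

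**Figure D4:**
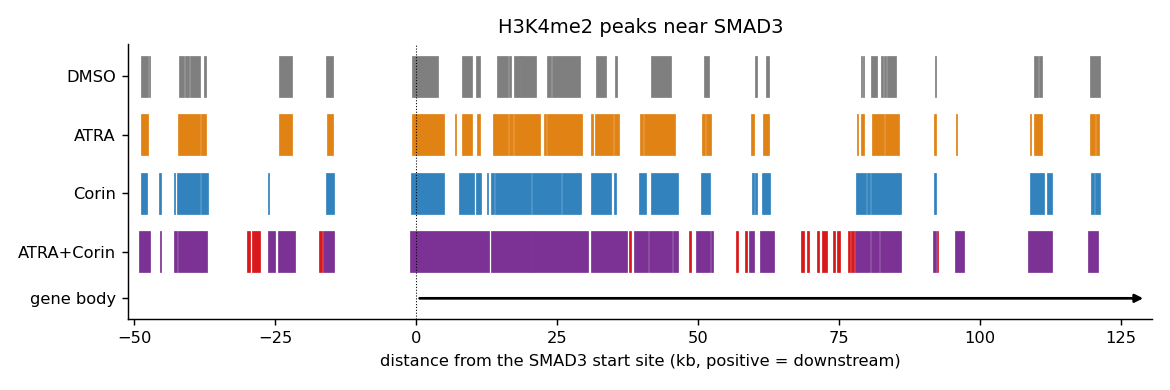
Peaks of the 4 lists by distance from the SMAD3 start site in kb; the arrow is the gene body, and red blocks are the 16 regions found only with ATRA+Corin. Separate peaks over the first 13 kb of the gene in DMSO, ATRA and Corin form 1 peak with ATRA+Corin, and the Corin track is empty at the upstream region 21.42 kb from the start.

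One strong *SMAD3* region was missing from the Corin list alone. At chr15:67041144-67044179, 21.42 kb upstream of the start, the −log10 q was 112 in DMSO, 144 with ATRA and 163 with ATRA+Corin. Fold enrichments were 22.3, 22.6 and 27.0, and the ATRA+Corin peak ranked in the top 3.61% of its list. The nearest Corin peaks ended 1520 bp to one side and began 5553 bp to the other. Of 1659 regions near protein-coding genes with this pattern of presence it ranked first by the highest −log10 q in any list, a ranking that crosses lists. The next were nearest to *BCL2L10*, *ECM2*, *CARS2*, *PPARD* and *PLCB1*, with highest −log10 q of 104, 79.8, 69.9, 66.5 and 54.9. The lists number their peaks by strength, and among the first 30000 numbers 22 are missing from the Corin list, compared with 18 in DMSO, 16 in ATRA and 17 in ATRA+Corin. The lists are labelled as optimal sets of peaks that reproduce by overlap. In all, 14.4% of numbers are missing in DMSO, 12.9% in ATRA, 12.8% in Corin and 8.20% in ATRA+Corin. An absent peak is therefore absence from the deposited set. Of the missing Corin numbers, 6 fall where −log10 q is at least 90, and whether a peak in this gap is among them was not tested.

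A second named region, chr15:67161082-67162741, lay 95.48 kb into *SMAD3* and occurred in both ATRA-containing lists only. It covered 197 bp with a −log10 q of 2.86 and a fold of 3.23 with ATRA. With ATRA+Corin it covered 1660 bp with a −log10 q of 21.6 and a fold of 8.80. The printed windows of both *SMAD3* intervals and of *TGFBR1* held no GTCTAGAC, no CAGAC (the SMAD-binding half-element) and no TGANTCA (the AP-1 motif) on either strand. The window upstream of *SMAD3* held 1 GAGGAA, a core that PU.1 binds. In 300 bases around all ATRA+Corin summits, GTCTAGAC was found at 0.182%, CAGAC at 45.2%, TGANTCA at 9.92% and GAGGAA at 29.3%. Around the 162 ATRA+Corin summits near the 10 genes, CAGAC was found at 48.8%, TGANTCA at 11.1% and GAGGAA at 30.2%. GTCTAGAC was found at 0 of these, and at 0 summits near the 10 genes in the other lists. The 7 palindromes printed above thus lie outside all the summit windows.

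*SMAD2*, the other receptor-activated SMAD gene, differed less. It held 8, 9, 8 and 12 regions covering 11.04 kb, 13.2 kb, 14.0 kb and 18.9 kb in DMSO, ATRA, Corin and ATRA+Corin. The combination alone held 4 of its regions. The strongest gain over DMSO lay 21.48 kb upstream, with −log10 q of 3.90 with Corin and 18.9 with ATRA+Corin. With peaks up to 1 kb apart merged, the difference in region number turned from +4 to −1.

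The gene of the shared partner, *SMAD4*, had the smallest marked area of the 10. A single region at its start site made up the DMSO and ATRA lists, with 3.48 kb and 3.66 kb. Corin added 1 region and ATRA+Corin 3, so that 4.77 kb and 5.93 kb were covered. The strongest of these, 44.62 kb downstream of the start, had a −log10 q of 3.62 with Corin and 15.6 with both drugs.

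The 2 inhibitory SMAD genes followed different courses. *SMAD6* held 6, 5, 8 and 11 regions in DMSO, ATRA, Corin and ATRA+Corin, and 9.69 kb, 11.8 kb, 13.5 kb and 15.5 kb under peaks. *SMAD7* held 9, 8, 12 and 9 regions, and 20.3 kb, 19.4 kb, 27.1 kb and 26.0 kb. The strongest regions that the combination gained over DMSO were weak at both genes, with −log10 q of 10.1 at 5.19 kb into *SMAD6* and 3.23 at 23.92 kb into *SMAD7*. Both Corin-containing lists covered more than DMSO at *SMAD7*. Region number there was above the 9 of DMSO with Corin only, at 12, and was 9 with ATRA+Corin. The *SMAD6* start site lay in one of the strongest peaks of each list, in the top 0.281% in DMSO, 0.568% with ATRA, 0.165% with Corin and 0.344% with ATRA+Corin. The top peak of the *SMAD7* start-site region had a −log10 q of 317, 400, 150 and 138 and a fold of 63.7, 78.2, 31.7 and 26.0 in the same order.

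The palindromes printed above differed in the lists that cover them. At *SMAD6*, 1 site lay 12 bp upstream of the start and under a peak in all 4 lists, and the other, 25899 bp upstream, lay under the ATRA and ATRA+Corin peaks only. RefSeq promoters (GRCh38.p14, 300 bases each) were matched for 9 of the 10 genes, all but *SKI*. Among these, GTCTAGAC was found in the *SMAD6* promoter only, and in 71 of 35116 promoters in all (0.202%). At *SMAD7*, the site 1260 bp upstream of the start lay under the DMSO and ATRA peaks. Those peaks ran unbroken from 2826 bp upstream to 3398 bp downstream and from 2900 bp upstream to 4072 bp downstream. In the Corin list the peaks on both sides stopped at 1111 bp and 1269 bp upstream, and in the ATRA+Corin list at 1079 bp and 1294 bp. The palindrome thus fell in a short gap in both Corin-containing lists. The *SMAD7* site 28533 bp downstream lay under a peak in all 4 lists, and the *SMAD2* site in the ATRA+Corin list only. The *TGFBR2* site was under a peak in all lists but ATRA, and the *SKI* site in all but Corin.

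Of the corepressor genes, *SKI* differed little between the lists. It held 12, 11, 12 and 13 regions and 26.1 kb, 24.7 kb, 28.3 kb and 28.7 kb. The combination gained 1 *SKI* region over DMSO, 3.85 kb upstream of the start with a −log10 q of 4.64. Another *SKI* region, beginning 25.61 kb downstream of the start and outside the naming rule, held peaks of all 4 lists, but not at the same bases. The DMSO peak lay at 27.785 to 28.247 kb, the ATRA peak at 26.414 to 27.043 kb and the Corin peak at 25.605 to 27.559 kb. The DMSO peak overlapped neither of the single-drug peaks. Only the ATRA+Corin peak, at 25.681 to 28.298 kb, joined them into 1 region. Its −log10 q was 3.50 in DMSO, 4.17 with ATRA, 66.9 with Corin and 111 with ATRA+Corin, and its peaks covered 463 bp, 630 bp, 1955 bp and 2618 bp. The −log10 q values are each read within a list and come partly from different sites, while the width was largest in both Corin-containing lists.

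*SKIL* held few regions, 2 in DMSO, 3 with ATRA, 3 with Corin and 7 with ATRA+Corin. Its covered length of 4.67 kb, 6.24 kb, 7.30 kb and 12.01 kb was 2.57 times the DMSO length with the combination, the largest ratio of the 10 genes. The median ratio was 1.69 over the 10 genes and 1.36 over the 17459 protein-coding genes with a DMSO peak. The start-site region of *SKIL* covered 4.42 kb, 5.13 kb, 5.69 kb and 8.08 kb. A run of 4 combination-only regions followed it between 6.24 kb and 8.15 kb, with −log10 q from 3.44 to 9.38.

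All 10 genes had a peak within 1 kb of the start in each list, compared with 61.3% to 62.3% of all protein-coding genes. The start base itself lay under a peak for 9 of 10 genes in DMSO (background 47.3%), 10 with ATRA (48.1%), 7 with Corin (38.0%) and 9 with ATRA+Corin (38.0%). The exceptions sat in gaps between peaks. At *TGFBR1* the gap was 203 bp wide in DMSO, 378 bp with Corin and 506 bp with ATRA+Corin. In the Corin list the gap was 109 bp at *TGFBR2* and 496 bp at *SKI*.

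Downstream of the start, the marked domains reached farther in the Corin-containing lists. The regions over the 10 start sites covered 56.96 kb in DMSO, 64.29 kb with ATRA, 77.55 kb with Corin and 85.24 kb with ATRA+Corin. They held 24, 22, 23 and 18 peaks. The downstream edge was the farthest end of any peak of a list in the merged region, and its median lay at 4.0 kb, 4.52 kb, 5.80 kb and 6.44 kb. It can lie beyond the peak over the start: at *SMAD3* in DMSO it was 11.31 kb, while that peak ended at 3.924 kb. At 5 kb downstream, a peak covered 3, 3, 4 and 8 of the 10 genes, compared with 5.63%, 6.41%, 8.05% and 10.2% of all protein-coding genes. The order of both Corin-containing lists depended on the distance: at 4.75 kb the 4 lists covered 3, 4, 6 and 8 of the 10 genes, and at 6 kb 1, 1, 5 and 4. At *TGFBR2*, the 7 peaks of 6.93 kb in DMSO were 3 of 8.18 kb with ATRA, 2 of 11.32 kb with Corin and 1 of 11.23 kb with both.

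**Figure D5:**
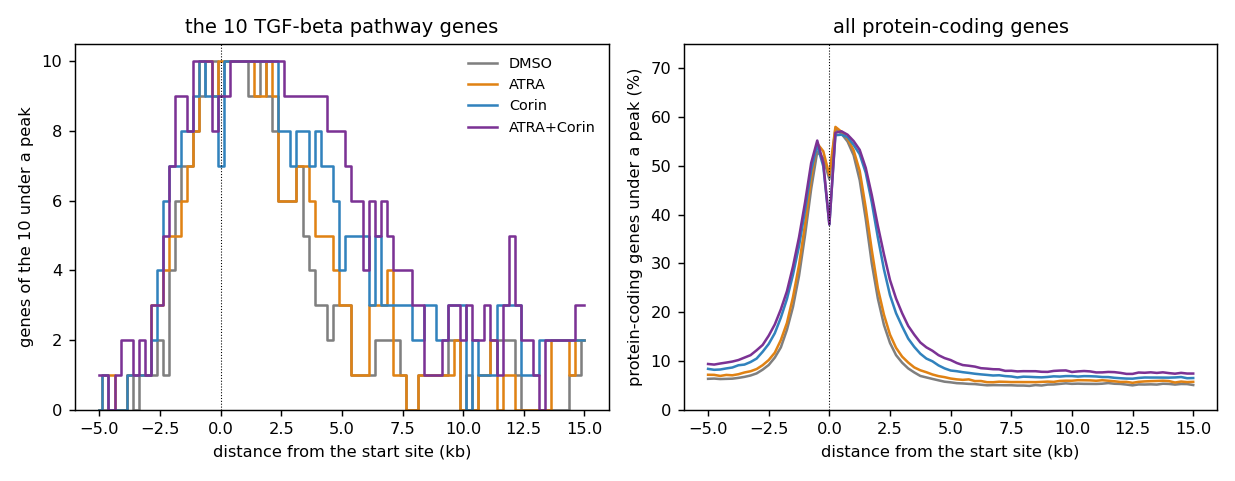
Genes under a peak by distance from the start site in kb, for the 10 genes (left, number of genes) and all protein-coding genes (right, percent); lines are the 4 pooled lists. At 5 kb downstream 8 of the 10 genes are covered with ATRA+Corin, 4 with Corin and 3 with DMSO, and at 6 kb 4, 5 and 1.

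The regions of the 10 genes also fell into patterns of presence. All 4 lists held 74 of the 154, or 48.1%, compared with 52.7% near all protein-coding genes. The combination alone held 40, or 26.0%, compared with 16.2%, at 8 genes. Because the members were chosen on these lists, nothing is read from such gaps. Of these 40 combination-only regions, 16 lay at *SMAD3*, 7 at *TGFBR2* and 4 each at *SMAD2*, *SMAD6* and *SKIL*. *TGFBR1* and *SMAD4* held 2 each and *SKI* 1. Corin alone held 10, of which 3 lay at *TGFBR1*, 2 each at *TGFBR2*, *SMAD6* and *SMAD7* and 1 at *SKI*, with −log10 q from 1.95 to 5.49. That was 6.49% of the regions, compared with 4.75% near all protein-coding genes. The 2 Corin-containing lists alone shared 11 regions (7.14% against 7.13%), and the 3 drug lists alone 5 (3.25% against 4.67%). The combination-only share was 19.4% against 10.3% with a −log10 q of at least 5, 13.9% against 7.34% with equal numbers of peaks, 11.2% against 10.4% with peaks up to 1 kb apart merged and 24.0% against 11.9% at equal depth.

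Other genes of the pathway, 34 ligands, receptors, transducers and inhibitors from a list chosen with earlier results known, held 138, 151, 168 and 208 regions in DMSO, ATRA, Corin and ATRA+Corin. The combination gained 74 of 212 over DMSO (34.9%, background 34.0%) and lost 4 (1.89%, background 4.30%). More regions with the combination than with DMSO were found at 21 genes, fewer at 2 and the same number at 11. More regions were found at 62.2% of all protein-coding genes. *TGFBR3*, a co-receptor, held 9, 11, 11 and 17 regions. *NEDD4L*, a ubiquitin ligase that acts on activated SMADs, held 5, 7, 10 and 13, and *TGIF1*, a SMAD corepressor, 3, 4, 6 and 8.

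At 18 known TGF-β target genes the lists held 116, 132, 131 and 168 regions. The combination gained 54 of 170 over DMSO (31.8%) and lost 2 (1.18%, background 4.30%). More regions with the combination were found at 13 of these genes, fewer at 0 and the same number at 5, beside the 62.2% of all protein-coding genes with more. *TGM2*, a transglutaminase that is also a retinoid target, held 5, 11, 8 and 22. *ID3*, an inhibitor of helix-loop-helix factors, held 8, 9, 9 and 15. *CDKN1A*, a cell cycle inhibitor, held 10, 12, 11 and 15. The gained share of both lists was near the background of 34.0%.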

How the data were processed

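The assay was paired-end ChIP-seq of H3K4me2, and 4 deposited peak lists, 1 for each treatment with its H3K4me2 libraries pooled, were analysed. Their labels describe optimal sets of peaks that reproduce by overlap, and their peak numbers have gaps. The submitters' processing notes name Trimmomatic, Bowtie2, Picard, MACS2 and hg38; versions and peak thresholds are not given in the sources used here. The authors deposited for each peak a score, a fold enrichment over input (a linear ratio), a −log10 p, a −log10 q and a summit offset. Fold and −log10 values are the authors' own, and score was not used. The values were used within a list, apart from the equal-depth alternative and the ranking of partial regions by their highest −log10 q in any list.

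The files were read with pandas 2.3.3 and numpy 2.4.6 in Python 3.11.15. Peaks that overlapped or touched were merged, and canonical start sites and exons came from GENCODE release 44. Build was checked: 47.3% of start sites lay under a DMSO peak, against 4.60% after a shift of 1 Mb. The members and gene lists were chosen with earlier results of these data known. By the naming rule, the text names all 10 genes, their start-site regions, regions gained or lost with a −log10 q of at least 20, each gene's strongest region gained with the combination, and the nearest genes of the 5 strongest regions that share the pattern of the members' strongest partial region. Genes of the other lists named in the text were chosen after their values were seen. Motifs were searched on both strands, in 300 bases around summits.

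Peak lists do not state depth. Relative depth was recovered from fold and −log10 p with scipy 1.17.1, in a script tested on simulated data, and solved 97.6% to 100% of each list. The H3K4me2 depth was 1.02 (ATRA), 1.10 (Corin) and 1.20 (ATRA+Corin) relative to DMSO, the combination being deepest. For equal depth, peaks were thinned to the lowest depth and kept at a recomputed −log10 p of at least 5. Kept peaks retained their deposited start and end, so peak widths were not adjusted for depth. The DMSO list, the shallowest, went from 65172 to 55617 peaks under that cut. Equal-depth values therefore mix depth with a stricter threshold. Alternatives were other windows, a −log10 q of at least 5, equal numbers of peaks, merging within 1 kb, equal depth and, added after the data were examined, leaving out SMAD3.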

Additional observations from a re-analysis of the deposited data

How the results depend on the processing

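No paired analysis was possible because each treatment has 1 pooled peak list. For the same reason no replicate was left out, and no interval covers the spread between libraries. The ATRA+Corin libraries were the deepest. At equal depth and a −log10 p of at least 5, the combination gained 40 of 112 regions over DMSO (35.7%, background 27.6%), compared with 57 of 142. The effects of depth and of that threshold were not separated. Of 98 recomputed values of the comparisons, 63 moved little. The rest are region counts near the 10 genes that moved by over 1.5 times, and the cause was not tested.

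For ATRA against DMSO, gained regions numbered 5 within 50 kb of the start only. With a minimum −log10 q of 5 for the gained or lost peak only, they numbered 4. They numbered 12 of 76 with the minimum in every list (15.8%, background 17.5%) and 13 of 85 at equal depth (15.3%, background 14.9%). Lost regions numbered 1 with that minimum in every list and 0 with it for the peak only. For Corin against DMSO, gained regions numbered 5 with the minimum for the peak only, 14 with equal numbers of peaks, 8 with merging within 1 kb and 14 at equal depth, and lost ones 2 with the minimum for the peak only and 3 with merging. For ATRA+Corin against DMSO, gained regions numbered 32 with the minimum in every list, 22 for the peak only, 27 with equal numbers, 17 with merging and 36 without *SMAD3*. Lost ones numbered 0 with either minimum, 9 with equal numbers and 1 at equal depth.

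For ATRA+Corin against ATRA, gained regions numbered 27, 19, 25, 17 and 36 under those same 5 alternatives. Against Corin they numbered 29 within 50 kb of the start only, then 26, 16, 23, 12 and 26. Lost regions against Corin numbered 8 with the minimum in every list, 3 for the peak only, 4 with merging and 6 at equal depth. Of 60 recomputed differences in region number at single genes between ATRA+Corin and DMSO, 38 moved by 1 region or more, 21 were unchanged and 1 changed sign. For example, *TGFBR1* went from 8 to between 2 and 5 outside the window change, *SMAD3* from 20 to between 5 and 10, and *SMAD6* from 5 to 0 with equal numbers or merging. The sign change was at *SMAD2*, which became -1 with merging within 1 kb.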

Other observations

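Peaks near the 10 genes had a median GC content of 53.0% around DMSO summits, 52.0% with ATRA, 51.0% with Corin and 50.3% with ATRA+Corin. Around all summits the medians were 52.0%, 51.0%, 49.7% and 49.3% in the same order. Retinoic acid receptor elements of direct repeats spaced by 5 or 2 bases were found at 0 of the 162 ATRA+Corin summits near the 10 genes, and at 0.0214% and 0.0322% of all ATRA+Corin summits. Among the 34 other pathway genes, *SMAD1*, *SMAD9* and *BMPR1B* held 0 regions in all 4 lists, and *SMAD5* and *BMPR2* held 1 in each.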
